A study of Mus musculus with 12 samples.

Results

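Tumors collected 6 days after a single dose of cyclophosphamide (CPA) were compared with vehicle tumors, across all 24197 gene rows of the deposited table. The tumors grew from E0771 cells, a mouse mammary carcinoma line, implanted in female C57/BL6N mice at the fourth mammary fat pad. Day 6 mice were 11 weeks old and, per the labels, received CPA at 130 mg/kg on day 0, which gives 1 cycle of treatment. Vehicle mice received PBS and were 9 to 10 weeks old, so that treatment and mouse age cannot be told apart. Each group had 2 libraries, each a pool of RNA from 2 or 3 tumors, and the 4 libraries are part of a series of 12 that also covers CPA days 1, 2 and 3 and day 12 after 2 cycles. RNA was polyA-selected and made into stranded libraries. The authors' table gives 1 expression value per group, in FPKM (fragments scaled to transcript length and to the size of the library), and not the depth of single libraries. No spread between pools can be had from these values and no test could be made from them. The table also holds the results of the authors' own comparison, which were not used, and every value below describes these libraries. One library titled as CPA day 1 carries a treatment entry of vehicle, so day 1 values are given only as part of the time series.

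CPA is a prodrug that the liver activates to a DNA-crosslinking agent, and spaced dosing of this kind is known to bring immune cells into some mouse tumors. Cytotoxic T cells and natural killer (NK) cells kill through perforin and granzymes. Macrophages take up antibody-coated and dying cells through Fc receptors, complement receptors and lectins, and present their peptides on MHC class II. Cholesterol synthesis is run by SREBP-2, a transcription factor held back when sterols are plentiful, while the LXR receptors switch on sterol export when oxysterols are plentiful.

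Far more genes were higher on day 6 than were lower. Among the 10856 rows at 1 FPKM or more in either group, 799 were more than 2-fold higher on day 6 than in vehicle (7.36% of those rows) and 48 were more than 2-fold lower (0.442%). Folds throughout are ratios of FPKM + 0.1, and "past 2-fold" is used for these rows alone. The median gene of the 10856 was at a log2 ratio of 0.04, near no difference, 56.6% of these rows had a higher value on day 6, and 86 rows were at least 4-fold higher against 5 at least 4-fold lower. The genes past 2-fold higher were mostly of low abundance: their median was 3.97 FPKM on day 6, against 1.27 FPKM in vehicle, and 340 of the 799 were under 1 FPKM in vehicle. In the plot of day 6 against vehicle values, genes of T cells, macrophages and antigen presentation lie above the diagonal and sterol enzymes below it.

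**Figure D1:**
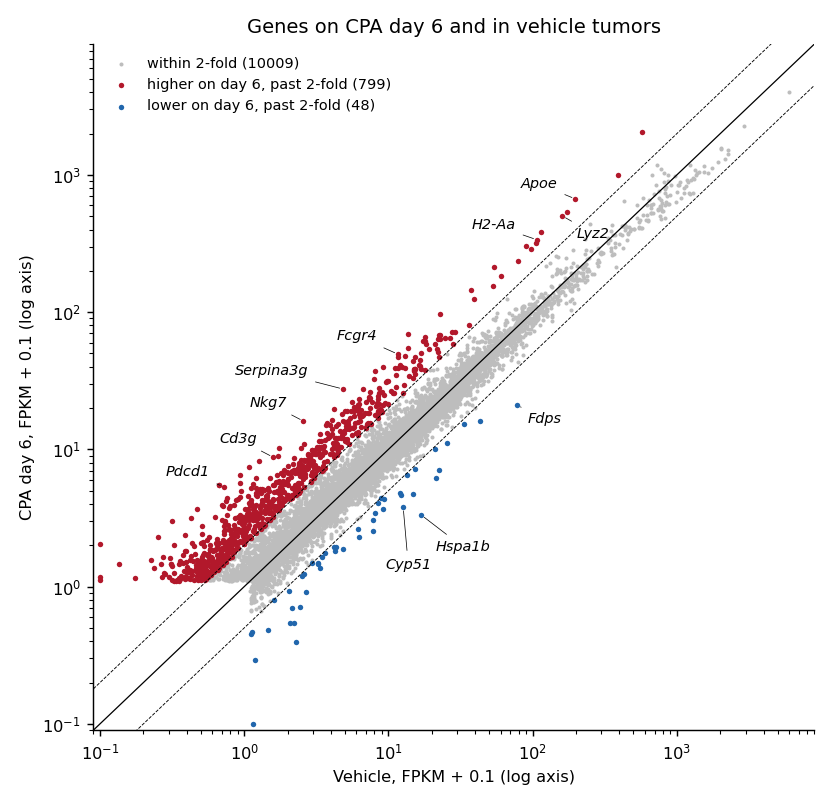
FPKM + 0.1 on CPA day 6 (vertical, log axis) and in vehicle tumors (horizontal, log axis), 1 point for each of 10856 rows at 1 FPKM or more in either group. Dashed lines mark 2-fold; 799 red points lie above them and 48 blue points below, such as Pdcd1 (5.24 FPKM on day 6 and 0.620 in vehicle) above and Fdps (20.9 FPKM on day 6 and 78.0 in vehicle) below.

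The largest differences were named by a fixed rule, the 15 highest and 15 lowest ratios at 5 FPKM or more in either group. All 15 higher rows were under 5 FPKM in vehicle, so they met this minimum through day 6 alone and their ratios rest on low vehicle values. The higher ones were genes of T and NK cells and ribonucleases, except for Ubd (a ubiquitin-like protein induced by cytokines) and Serpina3g (a serine protease inhibitor induced by interferon). Pdcd1, which encodes the inhibitory receptor PD-1 (mm9 chromosome 1, 95934881 to 95949130), had 5.24 FPKM on day 6, against 0.620 FPKM in vehicle, a 7.42-fold ratio. Serpina3g was the most abundant of the group at 27.4 FPKM on day 6, against 4.75 FPKM in vehicle. The rows EAR3 and EAR12, eosinophil-associated ribonucleases, had the top ratio (8.22-fold, 5.37 FPKM on day 6, against 0.565 FPKM in vehicle), but they carry identical values at the same location and count as a single measurement. Of the 15 lower genes, 11 act in making or taking up cholesterol or in its control, Fads2 makes unsaturated fatty acids, and the others were Hspa1b, Ccdc85b and Selenbp1.

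Pan-leukocyte genes were nearly all higher on day 6. Of 20 genes known from white blood cells of several lineages, 18 were past 2-fold higher and none lower, and all 20 had a higher value on day 6 than in vehicle and on each of days 1, 2 and 3, an order that 28.3% of the 10856 rows showed. The list median was 1.56 on the log2 scale, against 0.04 for all rows. Ptprc, the phosphatase CD45 that defines leukocytes, had 17.7 FPKM on day 6, against 6.23 FPKM in vehicle. Rac2, a GTPase of blood cells, had 16.3 FPKM on day 6, against 3.97 FPKM in vehicle. Cd52, a small surface glycoprotein, was the most abundant member past 2-fold, with 145 FPKM on day 6, against 37.4 FPKM in vehicle. The integrin chain Itgb2 had 26.2 FPKM on day 6 and 8.91 in vehicle, and its partner Itgal 4.51 FPKM on day 6 and 1.13 in vehicle. The members within 2-fold were Arhgdib (114 FPKM on day 6 and 94.8 in vehicle) and Arhgap30. In whole tumors, more cells of a type and more RNA per cell cannot be told apart, and this holds for every immune list that follows.

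T cell genes were among the lists with the highest ratios. Of 23 genes of the T cell receptor and its signaling, 16 were past 2-fold higher, the other 7 were under 1 FPKM in both groups, and all 23 had a higher value on day 6 (list median 1.73). The CD3 chains, which carry the receptor's signal, had 8.67 FPKM on day 6, against 1.49 FPKM in vehicle for Cd3g. Cd3d had 5.17 FPKM on day 6 and 1.01 in vehicle, and Cd3e 4.18 FPKM on day 6 and 0.780 in vehicle. The co-receptor of killer T cells, CD8, had 4.84 FPKM on day 6 and 0.846 in vehicle for Cd8a and 4.33 FPKM on day 6 and 0.660 in vehicle for Cd8b1. Cd4, the co-receptor of helper T cells, had 1.40 FPKM on day 6, against 0.563 FPKM in vehicle, a 2.27-fold ratio set beside 5.22-fold for Cd8a. The kinases that relay the receptor signal, Lck (4.97 FPKM on day 6 and 1.26 in vehicle) and Zap70 (1.88 FPKM on day 6 and 0.351 in vehicle), were past 2-fold as well. With a minimum of 1 FPKM in vehicle in place of either group, 8 members could be counted and all 8 were past 2-fold, since most of these genes were barely detected in vehicle.

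The T cell genes stood near vehicle on days 1 to 3, with list medians between -0.40 and -0.05. Cd3g was at 1.49, 1.65, 1.11, 1.23, 8.67 and 13.3 FPKM in vehicle and on days 1, 2, 3, 6 and 12. Cd8a was at 0.846, 0.916, 0.590, 0.834, 4.84 and 6.35 FPKM in vehicle and on days 1, 2, 3, 6 and 12. The day 6 value was thus above each of the first 4 groups, and day 12, after the second dose, was higher still for both genes. The same vehicle libraries enter the comparison of every day.

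**Figure D2:**
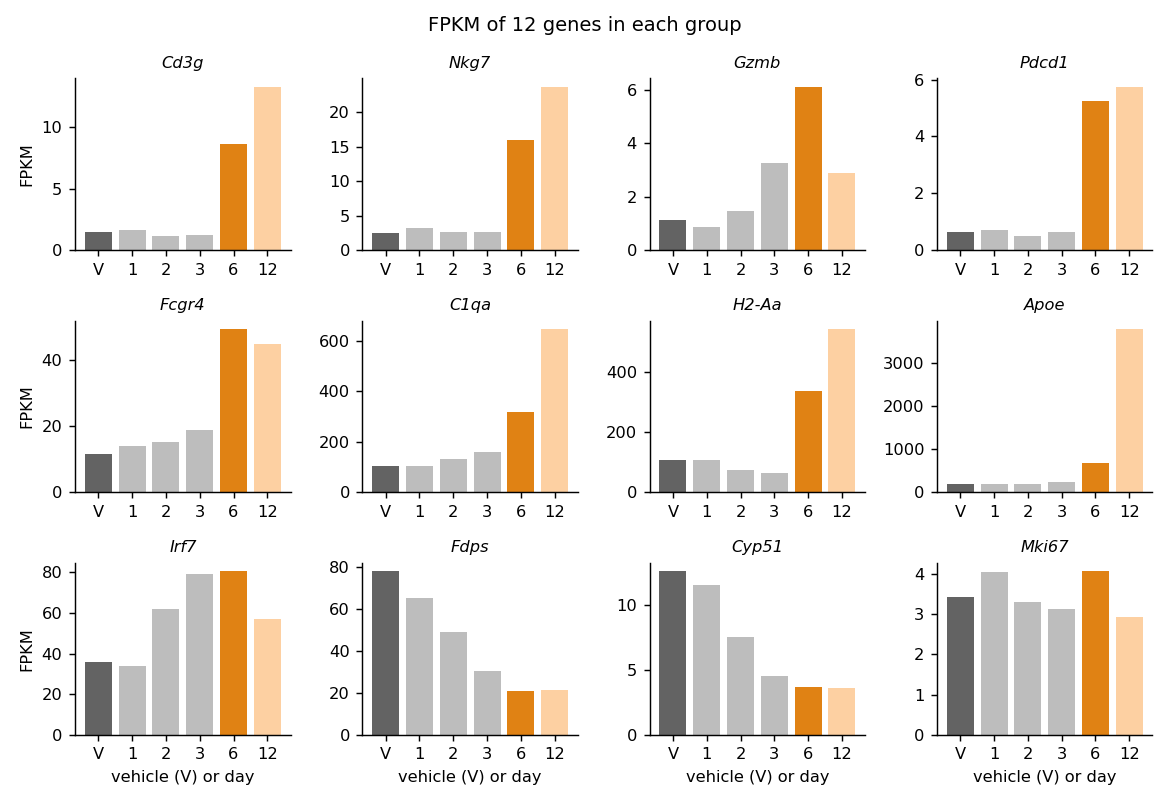
FPKM (vertical, linear axis from 0) of 12 genes in vehicle (V, dark grey), on days 1, 2 and 3 (light grey), day 6 (orange) and day 12 (pale orange); each bar is the authors' single value for a group. Cd3g, Nkg7 and Pdcd1 differ little between vehicle and day 3 and stand higher on day 6, while Fdps and Cyp51 stand lower from day 2 to day 6 (Fdps at 49.2 FPKM on day 2, 30.4 on day 3 and 20.9 on day 6).

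Cytotoxic effector genes had the highest median of all 50 lists, 2.36. All 15 had a higher value on day 6, 9 were past 2-fold, and the other 6 were under 1 FPKM in both groups. Nkg7, a granule membrane protein of T and NK cells (mm9 chromosome 7, 50692507 to 50693616), had 16.0 FPKM on day 6, against 2.48 FPKM in vehicle. Prf1, which encodes the pore-forming protein perforin, had 2.93 FPKM on day 6, against 0.632 FPKM in vehicle. Among the granzymes, the proteases that perforin lets into target cells, Gzma had 7.38 FPKM on day 6 and 0.977 in vehicle. Gzmb had 6.13 FPKM on day 6 and 1.11 in vehicle, and Gzmc 6.37 FPKM on day 6 and 0.835 in vehicle. Gzmd, Gzme, Gzmf and Gzmg lie side by side with Gzmc and are close copies, so the split of reads between them is uncertain; they ranged from 0.194 (Gzmg) to 1.36 FPKM (Gzmd) on day 6, against 0 to 0.0353 FPKM in vehicle. Ifng, the cytokine interferon-gamma, was low in both groups (1.13 FPKM on day 6, against 0.183 FPKM in vehicle). Srgn, which encodes the proteoglycan of secretory granules and is made by many blood cells, had 44.9 FPKM on day 6, against 16.5 FPKM in vehicle. With a minimum of 1 FPKM in vehicle, 3 members were left and all 3 were past 2-fold.

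Granzymes A and B had another course than the CD3 and CD8 genes. Gzma was at 0.977, 0.465, 1.63, 3.15, 7.38 and 6.97 FPKM in vehicle and on days 1, 2, 3, 6 and 12, and Gzmb at 1.11, 0.859, 1.47, 3.25, 6.13 and 2.90 FPKM in vehicle and on days 1, 2, 3, 6 and 12. Both were above vehicle on days 2 and 3 already, when Cd3g and Cd8a were not above vehicle, and both were lower on day 12 than on day 6. Prf1 stayed near vehicle up to day 3, at 0.632, 0.663, 0.640, 0.799, 2.93 and 2.03 FPKM in vehicle and on days 1, 2, 3, 6 and 12.

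Of 20 NK cell receptor genes and their adaptors, 7 were past 2-fold higher and 11 were under 1 FPKM in both groups, while all 20 had a higher value on day 6. Klrd1, the CD94 chain shared by several receptors, had 10.1 FPKM on day 6, against 1.63 FPKM in vehicle. Its partner Klrc1 (NKG2A, inhibitory) had 4.12 FPKM on day 6 and 0.644 in vehicle, and the activating receptor Klrk1 (NKG2D) had 3.78 FPKM on day 6 and 0.608 in vehicle. The adaptors Hcst and Tyrobp, which carry the signal of such receptors, had 5.04 FPKM on day 6 and 1.19 in vehicle (Hcst) and 125 FPKM on day 6 and 39.2 in vehicle (Tyrobp). Tyrobp is also abundant in macrophages. The defining marker Ncr1 (NKp46) was at 0.550 FPKM on day 6, against 0.0303 FPKM in vehicle, and Klrb1c (NK1.1) was at 0.464 FPKM on day 6 and 0.114 in vehicle, both under the minimum. Klra4 had 6.86 FPKM on day 6, against 3.98 FPKM in vehicle but stood at 17.8 FPKM on day 3; the Klra genes are near-identical copies, and which of them the reads came from is uncertain. Several of the listed receptors are also made by activated CD8 T cells, and the part these have in the values was not tested. With a minimum of 1 FPKM in vehicle, 4 of 6 members left were past 2-fold.

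Genes of immune checkpoints and costimulation were mixed. Of 20, 12 were past 2-fold higher and none lower (median 1.41). Besides Pdcd1, the inhibitory receptors Lag3 (3.21 FPKM on day 6 and 1.16 in vehicle) and Havcr2, or TIM-3 (4.16 FPKM on day 6 and 1.24 in vehicle), were past 2-fold. Ctla4, an inhibitory receptor of activated T cells, had 1.55 FPKM on day 6 and 0.408 in vehicle. The PD-1 ligands had 9.13 FPKM on day 6 and 3.86 in vehicle for Cd274 (PD-L1) and 1.56 FPKM on day 6 and 0.330 in vehicle for Pdcd1lg2 (PD-L2). The costimulatory ligands of antigen-presenting cells, Cd86 and Cd80, had 4.94 FPKM on day 6 and 1.28 in vehicle (Cd86) and 1.72 FPKM on day 6 and 0.660 in vehicle (Cd80). Tigit (6.67 FPKM on day 6 and 5.95 in vehicle) and Cd40 (14.6 FPKM on day 6 and 11.4 in vehicle) were well expressed and within 2-fold. With a pseudocount of 1 FPKM the count was 6 of 20, since several members lie between 1 and 5 FPKM.

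Transcription factors of lymphocytes were low throughout. Of 19, 12 were under 1 FPKM in both groups, 5 were past 2-fold higher, and all 19 had a higher value on day 6. Tbx21 (T-bet) and Eomes, which drive the cytotoxic program, had 0.776 FPKM on day 6 and 0.0828 in vehicle (Tbx21) and 0.216 FPKM on day 6 and 0.0180 in vehicle (Eomes). Id2, a helix-loop-helix inhibitor found in many cell types, was the most abundant with 17.7 FPKM on day 6, against 6.54 FPKM in vehicle. Tcf7 and Tox, tied in T cells to memory-like and exhausted states, had 1.66 FPKM on day 6 and 0.669 in vehicle (Tcf7) and 0.648 FPKM on day 6 and 0.183 in vehicle (Tox). Foxp3, the factor of regulatory T cells, was at 0.198 FPKM on day 6 and 0.0846 FPKM in vehicle, too low to read a direction from. A pseudocount of 1 FPKM left 1 member past 2-fold, Id2.

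Receptors for the cytokines of lymphocytes gave 6 of 14 past 2-fold higher, with 4 of the 14 under 1 FPKM in both groups. Of all rows at 1 FPKM or more, 7.36% were past 2-fold higher. Il2rb, the chain shared by the IL-2 and IL-15 receptors, had 8.85 FPKM on day 6, against 1.61 FPKM in vehicle, and Il10ra, which myeloid cells also carry, had 15.1 FPKM on day 6, against 4.36 FPKM in vehicle. Il2rg, the common gamma chain, was abundant in vehicle and within 2-fold (57.3 FPKM on day 6 and 35.2 in vehicle). Il21r had 3.56 FPKM on day 6 and 0.955 in vehicle and Il7r 2.23 FPKM on day 6 and 0.881 in vehicle. Among 20 interleukin and inflammatory cytokine genes, 7 were past 2-fold higher. Il1rn, the natural antagonist of the IL-1 receptor, was the most abundant of them, with 12.3 FPKM on day 6, against 4.65 FPKM in vehicle. Il15, which sustains CD8 T and NK cells, had 3.29 FPKM on day 6 and 1.49 in vehicle, and Tnf 3.49 FPKM on day 6 and 1.57 in vehicle. The others past 2-fold were Il27, Il16, Nos2 and Il10, at no more than 2.73 FPKM (Il27) on day 6. With a pseudocount of 1 FPKM the counts were 3 of 14 receptors and 2 of 20 cytokines. With a minimum of 1 FPKM in vehicle, 2 of 6 receptors left and 3 of 7 cytokines left were past 2-fold. The others past 2-fold met the minimum through day 6 alone. Il1b was within 2-fold at 12.2 FPKM on day 6, against 8.91 FPKM in vehicle, and Il6 was low in both groups (0.205 FPKM on day 6 and 0.357 in vehicle).

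B cell genes were mostly too low to be counted. Of 12, 9 were under 1 FPKM in both groups, and 7 had a higher value on day 6 and 5 a lower one. Blnk (3.41 FPKM on day 6 and 1.11 in vehicle) and Cd22 (1.23 FPKM on day 6 and 0.311 in vehicle) were past 2-fold higher. Of all rows at 1 FPKM or more, 7.36% were past 2-fold higher. Blnk is also made by macrophages. The defining marker Ms4a1, or CD20 (0.150 FPKM on day 6 and 0.0927 in vehicle), was under 1 FPKM in both groups, as was Pax5. Cd79a, part of the B cell receptor, was at 0.844 FPKM on day 6, against 0.850 FPKM in vehicle.

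Macrophage genes were higher on day 6 in a near-uniform way. Of 20 markers, 17 were past 2-fold higher and none lower, with a median of 1.47 and a summed level of 879 FPKM on day 6, against 289.8 FPKM in vehicle. Lyz2, which encodes lysozyme, had 502 FPKM on day 6, against 161 FPKM in vehicle. Adgre1 (F4/80) had 31.3 FPKM on day 6, against 9.65 FPKM in vehicle. Csf1r, the receptor for macrophage colony-stimulating factor, had 23.9 FPKM on day 6 and 7.26 in vehicle, and the lysosomal marker Cd68 67.5 FPKM on day 6 and 22.4 in vehicle. Ccr2, the monocyte receptor for the chemokine Ccl2, had the largest ratio of the list, with 12.9 FPKM on day 6, against 3.23 FPKM in vehicle. Itgam (CD11b) had 13.1 FPKM on day 6 and 4.79 in vehicle and Mrc1 (the mannose receptor) 12.7 FPKM on day 6 and 4.66 in vehicle. Siglec1, a sialic acid receptor of tissue macrophages, had 5.40 FPKM on day 6 and 1.497 in vehicle. The scavenger receptor Cd163 (0.366 FPKM on day 6 and 0.270 in vehicle) and the phosphatidylserine receptor Timd4 (0.155 FPKM on day 6 and 0.0817 in vehicle) were under 1 FPKM in both groups. Cd14, the co-receptor for lipopolysaccharide, was at 6.00 FPKM on day 6, against 3.53 FPKM in vehicle, within 2-fold.

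Receptors that recognise antibody and complement were higher alongside. Of 6 Fc gamma receptor genes, 5 were past 2-fold, with 49.3 FPKM on day 6, against 11.5 FPKM in vehicle for Fcgr4 (mm9 chromosome 1, 172949056 to 172959892). Fcgr3 had 39.9 FPKM on day 6 and 9.07 in vehicle, and Fcgr1 26.2 FPKM on day 6 and 7.34 in vehicle. The inhibitory Fcgr2b had 46.7 FPKM on day 6 and 15.2 in vehicle, and the shared signaling chain Fcer1g 154 FPKM on day 6 and 52.6 in vehicle. Fcgrt, the receptor that recycles antibody in many cell types, was within 2-fold at 27.7 FPKM on day 6 and 23.5 in vehicle. Of 20 complement genes, 11 were past 2-fold higher. The 3 chains of C1q, which starts the classical pathway and is made mainly by macrophages, had 319 FPKM on day 6 and 106 in vehicle (C1qa), 301 FPKM on day 6 and 90.3 in vehicle (C1qb) and 235 FPKM on day 6 and 78.4 in vehicle (C1qc). Cfp, encoding properdin, had 61.9 FPKM on day 6 and 17.9 in vehicle. The central component C3 had 14.5 FPKM on day 6 and 5.27 in vehicle, and the receptor C3ar1 19.8 FPKM on day 6 and 6.03 in vehicle. C2 had a lower value on day 6 (10.8 FPKM on day 6, against 15.6 FPKM in vehicle), within 2-fold.

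Families of myeloid surface proteins gave large shares past 2-fold. Of 10 MS4A genes, 8 were past 2-fold higher, among them Ms4a6c (41.4 FPKM on day 6 and 12.0 in vehicle) and Ms4a4c (31.7 FPKM on day 6 and 9.75 in vehicle). Ms4a4b, a member made by T cells, had the largest ratio of the family, with 8.19 FPKM on day 6, against 1.16 FPKM in vehicle. Of 16 C-type lectins, 12 were past 2-fold higher, and 7 with a pseudocount of 1 FPKM. Clec4a3 had 27.4 FPKM on day 6 and 6.60 in vehicle, and Clec12a 22.1 FPKM on day 6 and 5.49 in vehicle. Clec7a, or dectin-1, the receptor for fungal beta-glucan, had 10.8 FPKM on day 6 and 2.49 in vehicle. Clec1a had a lower value on day 6 (1.05 FPKM on day 6, against 1.75 FPKM in vehicle). Several of these genes are close copies in tandem, and reads that fit more than 1 of them make single values uncertain.

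Genes tied to lipid-laden macrophages split in parts. Of 16, 8 were past 2-fold higher. Lpl, which frees fatty acids from lipoproteins, had 36.9 FPKM on day 6, against 7.95 FPKM in vehicle. The fatty acid carrier Fabp5 had 48.2 FPKM on day 6 and 12.9 in vehicle, and the scavenger receptor Cd36 6.86 FPKM on day 6 and 2.21 in vehicle. The lipid sensor Trem2 had 19.7 FPKM on day 6 and 8.60 in vehicle, and the elastase Mmp12 18.8 FPKM on day 6 and 4.92 in vehicle. Gpnmb, a membrane glycoprotein, had a lower value on day 6 (23.1 FPKM on day 6 and 31.3 in vehicle), as did the tetraspanin Cd63 (277 FPKM on day 6 and 347 in vehicle). Plin2, a lipid droplet coat protein, had 105 FPKM on day 6 and 76.3 in vehicle, within 2-fold. Spp1, the secreted protein osteopontin, had 63.7 FPKM on day 6, against 22.5 FPKM in vehicle, below its day 3 value of 93.5 FPKM. Of 22 lysosomal enzymes and membrane proteins, 20 had a higher value on day 6 (56.6% of all rows did), and 5 were past 2-fold. Ctss, the cathepsin that cleaves the invariant chain of MHC class II, had 381 FPKM on day 6, against 114 FPKM in vehicle. Ctsc, the cathepsin that activates granzymes, had 65.3 FPKM on day 6, against 17.8 FPKM in vehicle. The others were Ctsh, Ctsk and Atp6v0d2, the last of them at 3.07 FPKM on day 6 and 0.328 in vehicle.

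MHC class II genes as a list were higher on day 6 than in vehicle, after medians below vehicle on days 2 and 3. Of 11, 8 were past 2-fold higher and the other 3 were under 1 FPKM in both groups. H2-Aa, the alpha chain of I-A, was at 107, 106, 74.3, 65.7, 337 and 543 FPKM in vehicle and on days 1, 2, 3, 6 and 12. Its beta chain H2-Ab1 had 289.6 FPKM on day 6, against 97.3 FPKM in vehicle. H2-Eb1 had 183 FPKM on day 6 and 59.9 in vehicle, and the invariant chain Cd74 534 FPKM on day 6 and 174 in vehicle. H2-DMa and H2-DMb1, which help load peptide, had 21.5 FPKM on day 6 and 8.28 in vehicle (H2-DMa) and 34.2 FPKM on day 6 and 13.7 in vehicle (H2-DMb1). Ciita, the coactivator that switches the class II genes on, was at 1.97 FPKM on day 6, against 0.621 FPKM in vehicle. On days 2, 3 and 6 the list median was -0.46, -0.50 and 1.37.

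The 200 bases before the RefSeq start site are shown for 3 class II genes, to let promoter elements be seen beside the values above (build GRCm38.p6, written 5′ to 3′ on the gene's strand). H2-DMb1 is chr17:34152991-34153190 (plus strand), H2-Eb1 chr17:34305667-34305866 (plus strand) and H2-Aa chr17:34287824-34288023 (minus strand). Capitals mark matches, on either strand, to AACNGATG, a spelling of the X box core bound by the RFX complex, and to GATTGG, the Y box bound by NF-Y, which is a CCAAT box read on the other strand.
H2-DMb1: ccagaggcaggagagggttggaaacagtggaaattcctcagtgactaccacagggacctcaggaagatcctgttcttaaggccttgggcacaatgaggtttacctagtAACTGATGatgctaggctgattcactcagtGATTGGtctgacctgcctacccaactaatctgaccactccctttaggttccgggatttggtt
H2-Eb1: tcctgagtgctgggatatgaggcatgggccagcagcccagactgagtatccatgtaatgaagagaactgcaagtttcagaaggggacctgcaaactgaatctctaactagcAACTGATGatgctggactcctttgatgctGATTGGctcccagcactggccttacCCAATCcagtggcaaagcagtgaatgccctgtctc
H2-Aa: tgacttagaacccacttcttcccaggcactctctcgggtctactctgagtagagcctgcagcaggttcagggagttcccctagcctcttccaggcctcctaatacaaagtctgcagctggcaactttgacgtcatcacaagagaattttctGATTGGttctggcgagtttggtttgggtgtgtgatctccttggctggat
The X box spelling was set after the windows were read, so its share among these genes is partly fixed by that choice. The spelling was found in 4 of the 8 class II genes with an entry in the promoter table and in 1.55% of all 32851 promoter entries, and GATTGG in 7 of 8 and 12.9%. H2-Aa holds GATTGG and has no match to the X box spelling. In H2-DMb1 the X box match begins 92 bases before the start and the Y box match 62 bases before it, and in H2-Eb1 they begin 89 and 60 bases before. A match is a run of letters and was not tested as a binding site.

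Class I genes differed less. Of 20 genes of MHC class I and antigen loading, 4 were past 2-fold higher, the nonclassical H2-T23, H2-Q4, H2-Q6 and H2-Q7. H2-T23, which encodes Qa-1, the ligand of CD94 and NKG2A, had 68.5 FPKM on day 6, against 22.8 FPKM in vehicle. The classical H2-K1 had 442 FPKM on day 6 and 248 in vehicle, and H2-D1 838 FPKM on day 6 and 720.2 in vehicle. The peptide transporter gene Tap1 was within 2-fold too, with 47.7 FPKM on day 6 and 40.5 in vehicle. Reads of H2 class I genes fit several copies, so single values carry that doubt.

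Dendritic cell markers were mixed. Of 15, 10 were at 1 FPKM or more in either group and 4 of those were past 2-fold higher, against 7.36% of all rows at that level. They were the chemokines Ccl17 (1.54 FPKM on day 6 and 0.172 in vehicle) and Ccl22 (2.30 FPKM on day 6 and 0.626 in vehicle), the migration receptor Ccr7 (3.54 FPKM on day 6 and 1.30 in vehicle) and the transcription factor Batf3 (6.99 FPKM on day 6 and 1.78 in vehicle). The defining genes Xcr1 (0.149 FPKM on day 6 and 0.0721 in vehicle), Flt3 (0.426 FPKM on day 6 and 0.146 in vehicle), Zbtb46 and Siglech were all under 1 FPKM in both groups. Another 4 of the 15 had a lower value on day 6, none past 2-fold. These were Bst2 (291 FPKM on day 6 and 350 in vehicle), Fscn1 (70.4 FPKM on day 6 and 79.0 in vehicle), Ly75 (3.30 FPKM on day 6 and 3.33 in vehicle) and Zbtb46. The other 11 had a higher value on day 6, and the list median was 0.95. The summed level of the list was 399 FPKM on day 6, against 447 FPKM in vehicle. Most of that sum was Bst2 and Fscn1 in both groups, so it does not describe the other members.

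Granulocyte genes were at low levels on day 6. Of 14 neutrophil markers, 5 were past 2-fold higher, but the calprotectin gene S100a8 was at 1.06, 1.01, 1.78, 2.03, 2.98 and 133 FPKM in vehicle and on days 1, 2, 3, 6 and 12. S100a9, its partner, had 1.04 FPKM on day 6, against 0.319 FPKM in vehicle. The granule genes Mpo, Elane, Camp and Ngp were at 0.308 FPKM (Ngp) or less on day 6. A pseudocount of 1 FPKM left 1 of the 5, Csf3r (4.48 FPKM on day 6 and 1.31 in vehicle). Among eosinophil and mast cell genes, Ear2 had 3.56 FPKM on day 6, against 0.372 FPKM in vehicle, at a location that contains that of the EAR3 and EAR12 rows, so the 3 rows are not separate measurements. The eosinophil genes Prg2, Epx, Il5ra and Siglecf were at no more than 0.0507 FPKM (Siglecf) in either group. The mast cell proteases Cma1 (6.36 FPKM on day 6 and 4.12 in vehicle) and Tpsb2 (6.52 FPKM on day 6 and 3.68 in vehicle) had higher values within 2-fold.

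Chemokines gave 9 of 27 genes past 2-fold higher and none lower. The most abundant of the 9 were Ccl8, a monocyte attractant (211 FPKM on day 6, against 53.7 FPKM in vehicle), and Ccl6 (47.0 FPKM on day 6, against 11.5 FPKM in vehicle). The CXCR3 ligands, which draw activated T and NK cells, had 19.1 FPKM on day 6 and 5.10 in vehicle for Cxcl9, 1.63 FPKM on day 6 and 0.577 in vehicle for Cxcl11 and, within 2-fold, 37.6 FPKM on day 6 and 20.3 in vehicle for Cxcl10. Their receptor Cxcr3 had 1.19 FPKM on day 6 and 0.332 in vehicle. Cxcl16 and its receptor Cxcr6 had 37.7 FPKM on day 6 and 15.03 in vehicle (Cxcl16) and 3.83 FPKM on day 6 and 0.597 in vehicle (Cxcr6), and Cxcr6 stood at 0.449 FPKM on day 3. Xcl1, a chemokine of NK and CD8 T cells, had 4.59 FPKM on day 6 and 1.11 in vehicle. Ccr1, a receptor for Ccl3 and Ccl5, had 4.98 FPKM on day 6 and 1.64 in vehicle. Ccl2, a monocyte attractant, was at 47.5, 51.3, 111, 151, 67.9 and 77.7 FPKM in vehicle and on days 1, 2, 3, 6 and 12, with its highest value of the 6 groups on day 3. Other chemokines also stood higher on day 3 than on day 6. Among them were Ccl7 (125 FPKM on day 3 and 68.9 on day 6), Ccl5 (75.2 FPKM on day 3 and 49.2 on day 6), Cxcl10 (53.4 FPKM on day 3) and Cxcl11 (2.01 FPKM on day 3). Of the 17 members at 1 FPKM or more, 9 were above vehicle and days 1, 2 and 3, against 28.3% of all rows.

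Of 37 type I interferon-stimulated genes, 5 (13.5%) were past 2-fold higher on day 6, against 7.36% of all rows. Only 3 of the 37 had a day 6 value above vehicle and days 1, 2 and 3, an order that 28.3% of all rows showed. Irf7, a transcription factor that amplifies interferon production, had 80.5 FPKM on day 6, against 36.0 FPKM in vehicle. Mx1, an antiviral GTPase, had 9.00 FPKM on day 6 and 4.16 in vehicle, and Zbp1 and Slfn5 were past 2-fold as well. On days 2, 3 and 6 the list median was 0.82, 0.97 and 0.52. Isg15, a ubiquitin-like antiviral protein, was at 72.9, 55.4, 162, 163, 76.1 and 85.7 FPKM in vehicle and on days 1, 2, 3, 6 and 12. Rsad2 (viperin) had 20.1 FPKM on day 6 and 18.2 in vehicle, after 40.7 FPKM on day 3, and Ifit1 had 16.6 FPKM on day 6 and 17.1 in vehicle, after 38.4 FPKM on day 3. With a pseudocount of 1 FPKM, 3 of the 5 stayed past 2-fold.

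Genes known for their answer to interferon-gamma had medians of 1.09 (GTPases) and 0.99 (others) on day 6. Of 16 interferon-inducible GTPases, which attack vacuoles of intracellular microbes, 7 were past 2-fold higher (4 with a pseudocount of 1 FPKM), and all 16 had a higher value on day 6. Of the 13 members at 1 FPKM or more, 5 were above vehicle and days 1, 2 and 3, and the list median was 1.00 on day 3 already. Gbp2 had 40.4 FPKM on day 6, against 16.4 FPKM in vehicle. Gbp4 had 6.97 FPKM on day 6 and 2.10 in vehicle, and Iigp1 15.2 FPKM on day 6 and 7.47 in vehicle. Igtp was within 2-fold, with 32.3 FPKM on day 6 and 18.7 in vehicle, and stood at 36.5 FPKM on day 3. Among 12 other genes of that response, Serpina3g and Il18bp, a secreted trap for IL-18, were the furthest from vehicle (Il18bp 19.5 FPKM on day 6, against 4.12 FPKM in vehicle), and 9 of the 11 members at 1 FPKM or more were above vehicle and days 1, 2 and 3. Irf1 (27.4 FPKM on day 6 and 17.0 in vehicle) and Socs1 (13.0 FPKM on day 6 and 9.79 in vehicle) were within 2-fold. Many of these genes answer to both kinds of interferon, so the lists do not tell them apart.

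Sensors of nucleic acids and microbial patterns gave 11 of 20 past 2-fold higher, and 6 with a pseudocount of 1 FPKM. Of the endosomal receptors for RNA or DNA, Tlr7, Tlr8, Tlr9 and Tlr13 were past 2-fold and Tlr3 was not. Tlr7 had 3.14 FPKM on day 6 and 1.02 in vehicle, and Tlr9 2.58 FPKM on day 6 and 0.914 in vehicle. Tlr1 and Tlr2, which bind lipopeptides together, had 4.94 FPKM on day 6 and 1.16 in vehicle (Tlr1) and 5.33 FPKM on day 6 and 2.21 in vehicle (Tlr2). The cytosolic DNA sensor Cgas (1.39 FPKM on day 6 and 1.06 in vehicle) and its adaptor Sting1 (14.1 FPKM on day 6 and 10.3 in vehicle) were within 2-fold. The related PYHIN family genes Ifi205 (11.1 FPKM on day 6 and 4.02 in vehicle) and Mndal (17.9 FPKM on day 6 and 8.36 in vehicle) were past 2-fold higher.

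**Figure D3:**
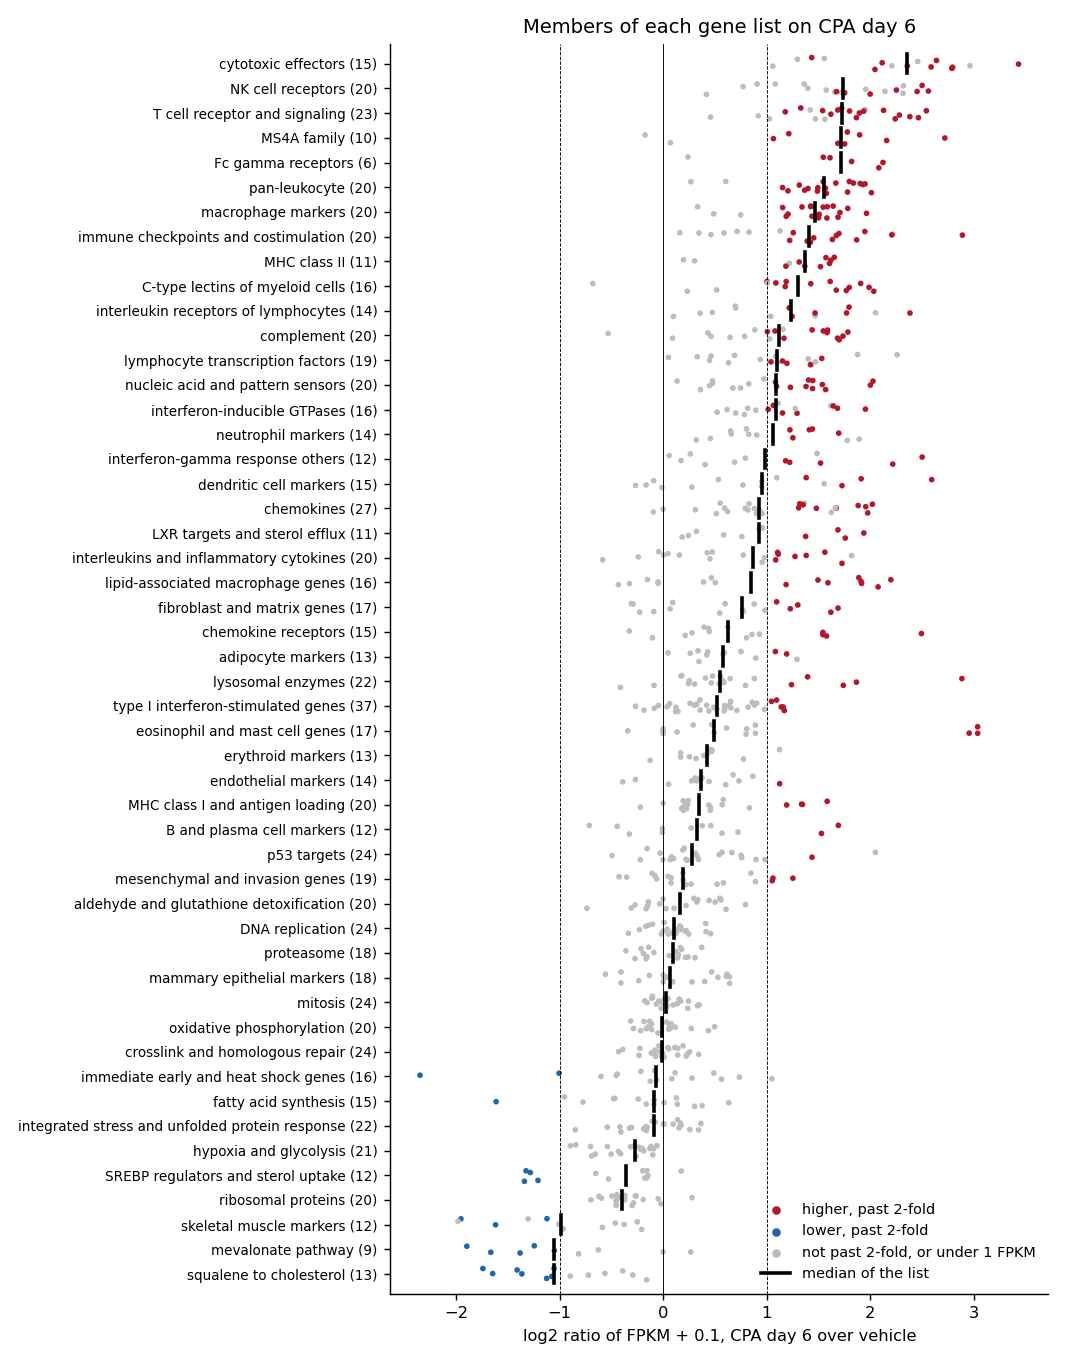
Log2 ratio of FPKM + 0.1, day 6 over vehicle, for every member of the 50 gene lists (number of members in brackets), with lists ordered by their median (black bar). Red and blue points are past 2-fold higher and lower among rows at 1 FPKM or more, grey points are not; the lists run from cytotoxic effectors at a median of 2.36 to squalene to cholesterol at -1.05.

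Cholesterol synthesis was the main group lower on day 6. Of 22 enzymes from acetyl-CoA to cholesterol, 12 were past 2-fold lower and none higher, beside 0.442% of all rows lower. These were 5 of 9 genes of the mevalonate pathway and 7 of 13 from squalene onward, each list at a median of -1.05. Fdps, farnesyl diphosphate synthase (mm9 chromosome 3, 88897509 to 88905889), had 20.9 FPKM on day 6, against 78.0 FPKM in vehicle, a 3.72-fold lower value. Cyp51, the lanosterol demethylase (mm9 chromosome 5, 4080673 to 4104697), had 3.68 FPKM on day 6, against 12.6 FPKM in vehicle. Idi1, the isopentenyl diphosphate isomerase, had 6.94 FPKM on day 6 and 22.2 in vehicle. The methylsterol oxidase Msmo1 had 16.1 FPKM on day 6 and 42.9 in vehicle. Sqle, squalene epoxidase, was less far from vehicle, at 10.0 FPKM on day 6, against 20.9 FPKM in vehicle. The Hmgcs1 row was listed at 0 in every group at 2 locations, and is no measurement of that gene. With a pseudocount of 1 FPKM, 4 of 13 in the squalene list were past 2-fold lower.

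The enzymes were not lower to the same extent along the pathway. Ggps1, which leads to geranylgeranyl diphosphate and away from sterols, had 3.88 FPKM on day 6, against 3.21 FPKM in vehicle. Ebp (8.29 FPKM on day 6 and 9.27 in vehicle), Lbr (11.3 FPKM on day 6 and 13.9 in vehicle) and Sc5d (9.80 FPKM on day 6 and 12.9 in vehicle) lay within 2-fold. Fdps was at 78.0, 65.2, 49.2, 30.4, 20.9 and 21.3 FPKM in vehicle and on days 1, 2, 3, 6 and 12, and Cyp51 at 12.6, 11.5, 7.48, 4.53, 3.68 and 3.58 FPKM in vehicle and on days 1, 2, 3, 6 and 12. Both were lower in each group than in the one before it up to day 6, and day 12 was close to day 6. Of the 21 enzymes measured, 14 were lower on day 6 than in vehicle and on days 1, 2 and 3, an order that 21.3% of all rows showed.

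**Figure D4:**
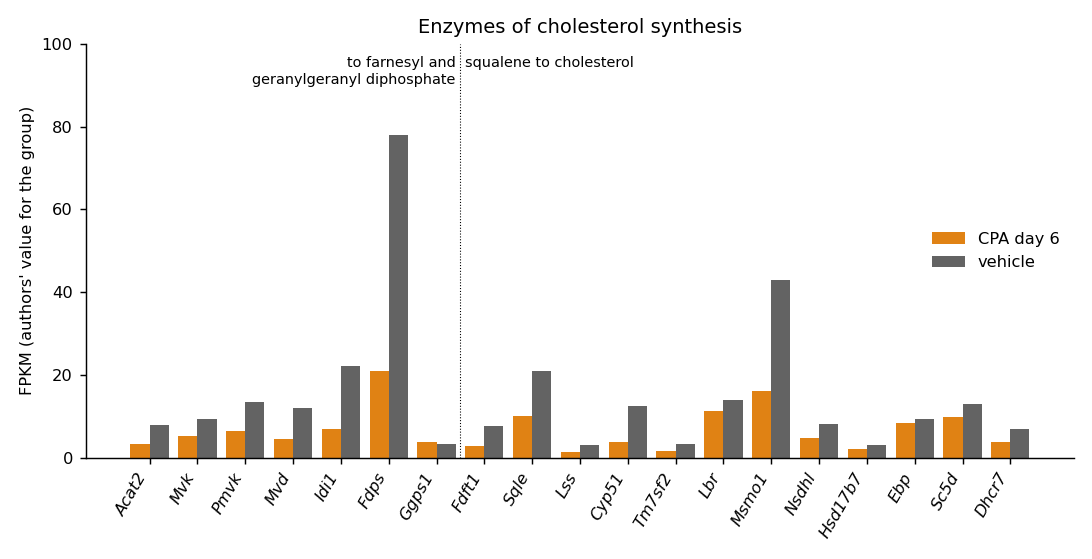
FPKM (vertical, linear axis from 0) of 19 enzymes of cholesterol synthesis in pathway order, on CPA day 6 (orange) and in vehicle (grey); each bar is the authors' single value for a group. All but Ggps1 are lower on day 6, with the widest gap at Fdps (20.9 FPKM on day 6 and 78.0 in vehicle).

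Promoters of 4 enzymes past 2-fold lower are shown with their CCAAT boxes, the site of NF-Y, which is known to bind next to SREBP at sterol genes. Each line holds the 200 bases before the RefSeq start (build GRCm38.p6, 5′ to 3′ on the gene's strand). Idi1 is chr13:8885406-8885605 (plus strand), Cyp51 chr5:4104698-4104897 (minus), Msmo1 chr8:64733579-64733778 (minus) and Mvd chr8:122443423-122443622 (minus). Capitals mark CCAAT on either strand, so that ATTGG is the same box read from the other strand.
Idi1: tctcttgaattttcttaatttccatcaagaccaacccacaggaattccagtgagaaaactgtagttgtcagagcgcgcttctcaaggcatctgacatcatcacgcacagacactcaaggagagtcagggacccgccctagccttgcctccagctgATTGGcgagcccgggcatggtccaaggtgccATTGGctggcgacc
Cyp51: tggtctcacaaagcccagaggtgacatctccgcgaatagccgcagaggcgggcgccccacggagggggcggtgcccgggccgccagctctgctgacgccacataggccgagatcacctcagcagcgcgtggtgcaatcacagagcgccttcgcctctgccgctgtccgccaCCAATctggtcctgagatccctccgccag
Msmo1: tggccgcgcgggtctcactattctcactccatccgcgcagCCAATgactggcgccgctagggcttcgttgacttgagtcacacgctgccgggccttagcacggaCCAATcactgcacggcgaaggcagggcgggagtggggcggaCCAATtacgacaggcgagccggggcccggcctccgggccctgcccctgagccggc
Mvd: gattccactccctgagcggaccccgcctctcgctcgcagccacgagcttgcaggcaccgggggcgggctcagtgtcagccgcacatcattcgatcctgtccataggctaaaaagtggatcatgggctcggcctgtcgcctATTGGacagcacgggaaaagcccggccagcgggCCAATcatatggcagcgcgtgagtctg
CCAAT was found in 15 of the 17 sterol enzymes with an entry in the promoter table and in 29.3% of all 32851 entries. Acat2 and Dhcr7 had none in this window. Acat2 was past 2-fold lower and Dhcr7 within 2-fold, and Ebp, Lbr and Sc5d, also within 2-fold, hold the box, so it does not separate the enzymes past 2-fold from the others. TCACNCCAC, a spelling of the sterol regulatory element, was found in 1 of the 17, Hmgcs1, and in 0.858% of all entries.

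Regulators of the pathway were lower too. Srebf2, which encodes SREBP-2, had 10.9 FPKM on day 6, against 25.4 FPKM in vehicle, and 4 of the 12 regulators and uptake genes were past 2-fold lower. Insig1, which retains SREBP in the endoplasmic reticulum, had 3.58 FPKM on day 6 and 9.12 in vehicle, and the sterol carrier Stard4 1.27 FPKM on day 6 and 3.25 in vehicle. Srebf1 (11.1 FPKM on day 6 and 16.1 in vehicle) and the escort protein Scap (6.30 FPKM on day 6 and 7.23 in vehicle) were within 2-fold.

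Genes of sterol export had higher values on day 6. Of 11 LXR targets and sterol efflux genes, 4 were past 2-fold higher and all 11 had a higher value on day 6. Apoe, which carries lipid out of macrophages (mm9 chromosome 7, 20281592 to 20284515), had 669 FPKM on day 6, against 197 FPKM in vehicle. The cholesterol pumps Abca1 and Abcg1 had 4.18 FPKM on day 6 and 1.02 in vehicle (Abca1) and 15.8 FPKM on day 6 and 6.04 in vehicle (Abcg1). Mylip, a ubiquitin ligase that LXR switches on, had 2.47 FPKM on day 6 and 0.696 in vehicle. The receptor genes Nr1h3 (LXR-alpha) and Nr1h2 (LXR-beta) had 15.9 FPKM on day 6 and 8.33 in vehicle (Nr1h3) and 18.2 FPKM on day 6 and 16.0 in vehicle (Nr1h2). Apoe, Abca1 and Nr1h3 are abundant in macrophages, whose summed marker level was 3.03 times that of vehicle, and the part this has in the list was not tested.

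Of 15 genes of fatty acid synthesis, 1 was past 2-fold lower and none higher. Fads2, a desaturase that SREBP also drives, had 2.45 FPKM on day 6, against 7.70 FPKM in vehicle. The fatty acid synthase Fasn had 15.7 FPKM on day 6 and 17.6 in vehicle, and the desaturase Scd1 14.4 FPKM on day 6 and 13.2 in vehicle. The list median was -0.09, against 0.04 for all rows.

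Genes of cell division did not stand apart on day 6. Of 24 DNA replication and 24 mitosis genes, none was past 2-fold in either direction, with medians of 0.10 and 0.03 and ratios between -0.34 and 0.46. Mki67, the proliferation marker, had 4.06 FPKM on day 6, against 3.43 FPKM in vehicle. Mcm2, a helicase subunit, had 14.3 FPKM on day 6 and 12.4 in vehicle, and the topoisomerase Top2a 39.5 FPKM on day 6 and 40.5 in vehicle. Both medians were higher on day 3 (0.32 and 0.40), and all 48 genes were lower on day 12 than on day 6.

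DNA damage genes likewise lay near vehicle. Of 24 genes of crosslink and homologous repair, none was past 2-fold and the median was -0.01. Fanca, of the Fanconi complex, had 14.96 FPKM on day 6 and 14.9 in vehicle. Of 24 p53 targets, Trp53inp1 alone was past 2-fold (1.53 FPKM on day 6, against 0.501 FPKM in vehicle), and it was within 2-fold with a pseudocount of 1 FPKM. Cdkn1a (p21) had 51.1 FPKM on day 6, against 35.1 FPKM in vehicle, after 56.98 FPKM on day 3, and Mdm2, which degrades p53, had 16.6 FPKM on day 6 and 14.5 in vehicle. None of 20 genes that detoxify aldehydes or conjugate glutathione was past 2-fold, Gstp1 being the furthest below vehicle at 117 FPKM on day 6, against 194 FPKM in vehicle. Aldh1a1 and Aldh3a1, which inactivate the activated drug, were under 1 FPKM in both groups.

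Some lists shifted by less than 2-fold but in 1 direction, while 56.6% of all rows had a higher value on day 6. All 21 genes of hypoxia and glycolysis had a lower value on day 6 (median -0.27), among them the mitophagy receptor Bnip3 (18.7 FPKM on day 6 and 34.9 in vehicle) and the glycolytic enzyme Pfkl (20.9 FPKM on day 6 and 37.6 in vehicle). Gapdh lay nearest to vehicle, with 1181 FPKM on day 6 and 1231 in vehicle. Of 20 ribosomal protein genes, 19 had a lower value on day 6 (median -0.39), and 18 were below vehicle and days 1, 2 and 3, against 21.3% of all rows. Rps3 had 476 FPKM on day 6, against 772 FPKM in vehicle. FPKM values are shares of a library, and the summed FPKM of the 20 ribosomal rows was 15771 on day 6 and 20843 in vehicle. Oxidative phosphorylation (median -0.01), proteasome (0.09) and stress response genes (-0.09) had no member past 2-fold.

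Heat shock genes gave the furthest value of the lower rows at 5 FPKM or more. Hspa1b, an inducible HSP70 (mm9 chromosome 17, 35093373 to 35096183), was at 16.8, 7.85, 4.71, 3.84, 3.22 and 3.37 FPKM in vehicle and on days 1, 2, 3, 6 and 12. Its near-identical neighbor Hspa1a was at 2.86, 0.981, 0.404, 0.388, 1.38 and 1.61 FPKM in vehicle and on days 1, 2, 3, 6 and 12, and reads may be split between the pair. Vehicle was the highest of the 6 groups for both, and every CPA group was below it. No other gene of the list was past 2-fold at 1 FPKM or more, and the co-chaperone Dnajb1 had 17.3 FPKM on day 6 and 23.6 in vehicle.

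Markers of the tumor cells and of other tissues were checked against the label. Of 18 mammary epithelial markers, 16 were under 1 FPKM in both groups, including Epcam (0.317 FPKM on day 6 and 0.189 in vehicle) and Cdh1 (0.272 FPKM on day 6 and 0.144 in vehicle), and the milk genes Wap and Csn2 were listed at 0. Krt8 (94.2 FPKM on day 6 and 125 in vehicle) and Erbb2 (2.67 FPKM on day 6 and 3.58 in vehicle) were the 2 detected, and the hormone receptor gene Esr1 had 0.143 FPKM on day 6 and 0.0559 in vehicle. Vim, a mesenchymal filament, had 1157 FPKM on day 6, against 1554 FPKM in vehicle. Most markers of the tissue in the label were thus not detected in either group at 1 FPKM.

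Stromal lists are set beside the 7.36% of rows at 1 FPKM or more that were past 2-fold higher. Of 17 fibroblast and matrix genes, 15 were at 1 FPKM or more in either group and 5 of those were past 2-fold higher. The proteoglycan Dcn had 6.19 FPKM on day 6 and 2.45 in vehicle, and the collagen chain Col1a2 15.4 FPKM on day 6 and 7.15 in vehicle. Thy1, counted there too, is also a T cell gene, and Col6a1 had 101 FPKM on day 6 and 125 in vehicle. Of 14 endothelial markers, 12 were at that level and 1 of those was past 2-fold (Vwf, 1.73 FPKM on day 6 and 0.740 in vehicle). Pecam1 had 11.3 FPKM on day 6 and 6.14 in vehicle. Of 19 mesenchymal and invasion genes, 17 were at that level and Fn1, Mmp13 and Mmp9 were past 2-fold higher, none with a pseudocount of 1 FPKM. Mmp13, a collagenase, had 18.7 FPKM on day 6 and 8.89 in vehicle.

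Markers of fat, muscle and blood were compared as well. Of 13 adipocyte markers, 10 were at 1 FPKM or more in either group. Pck1 (2.23 FPKM on day 6 and 0.998 in vehicle) and Plin1 (1.14 FPKM on day 6 and 0.442 in vehicle) were past 2-fold higher, as were 7.36% of all rows at that level. Both were under 1 FPKM in vehicle and met the minimum through day 6 alone. All 13 had a higher value on day 6 (against 56.6% of all rows). The summed level was 129 FPKM on day 6, against 96.8 FPKM in vehicle and 5825 FPKM on day 12. All 12 skeletal muscle genes had a lower value on day 6, with a list median of -0.99. Of the 12, 6 were under 1 FPKM in both groups and 3 were past 2-fold lower (Tnnc2, Acta1 and Ckm), beside 0.442% of all rows at 1 FPKM or more. The list sum was 13.1, 8.84, 4.39, 17.1, 5.89 and 29.8 FPKM in vehicle and on days 1, 2, 3, 6 and 12. Among the members at 1 FPKM or more, 1 was below vehicle and days 1, 2 and 3. Of 13 erythroid genes none was past 2-fold. The hemoglobin row Hbb-b1 was at 44.5, 7.15, 1.69, 1.25, 50.03 and 407 FPKM in vehicle and on days 1, 2, 3, 6 and 12, so day 6 was back near vehicle after low values on days 1 to 3. The part that carried-over fat, muscle or blood has in the other lists was not tested.

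Set beside the other days, day 6 lies between the early days and day 12. On days 1, 2, 3, 6 and 12 the share of rows past 2-fold from vehicle was 0.607%, 1.30%, 2.06%, 7.80% and 25.6%, all against the same vehicle libraries. Of the 799 genes higher on day 6, 766 were above vehicle and days 1, 2 and 3, an order that 28.3% of all rows showed. Of the same 799, 665 had a day 3 value closer to vehicle than to day 6 on the log2 scale. Genes on both sides were chosen by their day 6 ratio to vehicle, which sets such counts in part. On day 12, 608 of the 799 stood above their day 6 value. Of the 48 genes lower on day 6, 38 were below vehicle and days 1, 2 and 3, an order that 21.3% of all rows showed. Of the same 48, 20 had a day 3 value closer to vehicle than to day 6, and 23 were lower again on day 12. The plot of list medians by group shows the pan-leukocyte, T cell and macrophage lists between -0.40 and 0.18 on days 1 to 3, and the squalene list below 0 from day 2.

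**Figure D5:**
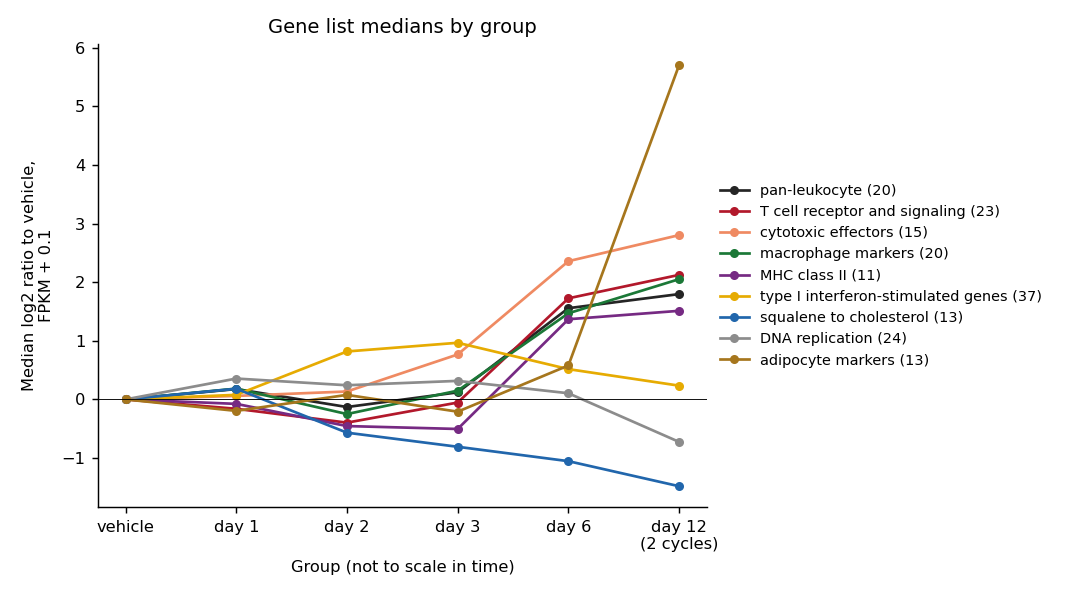
Median log2 ratio to vehicle of FPKM + 0.1 (vertical) for 9 gene lists (number of members in brackets) in vehicle and on days 1, 2, 3, 6 and 12 (horizontal, not to scale in time). T cell genes stand at -0.05 on day 3 and 1.73 on day 6, type I interferon genes at 0.97 on day 3 and 0.52 on day 6, and squalene to cholesterol at -0.81 on day 3 and -1.05 on day 6.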

How the data were processed

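RNA-seq of E0771 tumors was taken as deposited. Per the labels and the submitters' processing notes, TopHat2 was used for alignment (genome build mm9), featureCounts for counting and edgeR for the authors' comparisons. For their versions, none were given in the sources used here. The authors deposited 1 FPKM value per gene and group, made from both libraries of a group together, for 24197 rows. Whether counting used strand was not stated, nor how reads that fit several places were treated. The table's 15 columns of the authors' own comparisons (a ratio, a signed fold change and a p-value for each day against vehicle) were not used. The table gives no depth per library, and the read numbers in the study's own library list were not used here. The libraries were polyA-selected, so RNA without a polyA tail is poorly measured, and FPKM is a share of a library, so a rise in some genes lowers the values of the others.

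The design named a count test in case the files held counts per library. With 1 FPKM value per group that test could not be made from these values, and no other test of a gene, list or library took its place. Log2 ratios of FPKM + 0.1 were taken, day 6 over vehicle. A row was counted past 2-fold when it had at least 1 FPKM in either group and a ratio of more than 2 in either direction. With the pseudocount, folds of genes near 0.1 FPKM are understated. A single doubling in 1 pool cannot be told from one in both. The counting was tested on simulated data.

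The 50 lists and the choice of named genes were made with earlier results of these data known. The rule took the 15 highest and 15 lowest ratios among rows reaching 5 FPKM, without predicted genes, RIKEN clones, microRNA rows and receptor segments, then members of the lists and the genes the study measured by PCR. The lists held 869 members found in the table, and 3 genes were not matched (Ms4a4a, Ms4a14 and Ahsp). A few list members enter the counts and are not reported by name here. Of the row names, 22846 matched a current mouse symbol and 1174 a synonym in RefSeq, 150 matched none, and 27 had been turned into dates. Of the rows past 2-fold, 8 shared all values with another row. Gene coordinates are mm9, the first location in the table. Promoter sequences come from RefSeq (GRCm38.p6), the first entry of each gene, and were not compared with mm9 positions. CPA dose is that of the labels, and the study's material also names another.

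Alternatives were pseudocounts of 1 and 0.01 FPKM, no minimum and a minimum of 5 FPKM, a shift of all ratios to a median of 0, and a single count for rows that share values. A minimum of 1 FPKM in the mean of all 6 groups, or in vehicle, was added after the data were seen. Calculations used Python 3.11.15, numpy 2.4.6 and pandas 2.3.3, and plots matplotlib 3.10.9.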

Additional observations from a re-analysis of the deposited data

How the results depend on the processing

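The 799 higher and 48 lower genes depended on the settings for low values. With a pseudocount of 1 FPKM, 429 were higher and 22 lower. Without a minimum, 1290 were higher and 136 lower of 18356 rows, and with a minimum of 5 FPKM 338 were higher and 23 lower of 6687 rows. A minimum of 1 FPKM in vehicle, chosen after the data were seen, gave 459 higher. Other settings gave 673 to 834 higher and 48 to 53 lower. Higher genes outnumbered lower ones under every setting tried. No named gene or list median more than 2-fold from vehicle changed direction, but these settings could not have shown such a change. A pseudocount cannot turn a gene's ratio round, and recentring moved every ratio by only 0.04. Smaller ratios were not checked for a change of direction. Of 250 named genes past 2-fold, 175 stayed so with a pseudocount of 1 FPKM, 250 with 0.01 FPKM and 247 after recentring. Of 100 counts of list members (higher and lower for each list), 18 moved by over 1.5 times with a pseudocount of 1 FPKM, 21 with a minimum of 5 FPKM and 17 with the minimum in vehicle.

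No paired analysis was possible because the table holds 1 value per group. Leaving out each library and the replicate block were not run for the same reason. With 2 pools per group merged into 1 value, the share of each pool in a difference is unknown. The table gives no depth or counts, so a gene listed at 0 is not shown to be absent, and values under 1 FPKM rest on few fragments. Day 6 mice were older than vehicle mice, and age and treatment cannot be told apart.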

Other observations

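Of the 799 genes higher on day 6, 574 were in none of the 50 lists, and those named here were chosen after their values were seen. Ly6c2, a surface marker of inflammatory monocytes, had 54.3 FPKM on day 6, against 13.5 FPKM in vehicle, and stood at 22.4 FPKM on day 12. Ucp2, a mitochondrial carrier, had 96.8 FPKM on day 6, against 22.6 FPKM in vehicle, and Selenop, a selenium carrier protein, 61.5 FPKM on day 6, against 17.4 FPKM in vehicle. The subunits of the phagocyte oxidase Cybb and Ncf4 had 17.5 FPKM on day 6 and 5.68 in vehicle (Cybb) and 11.4 FPKM on day 6 and 3.22 in vehicle (Ncf4). The metal transporter Slc11a1 had 21.9 FPKM on day 6 and 6.85 in vehicle. Receptor chains for the growth factor GM-CSF had 19.2 FPKM on day 6 and 6.36 in vehicle (Csf2ra) and 6.72 FPKM on day 6 and 1.89 in vehicle (Csf2rb). The paired receptor Pirb had 18.8 FPKM on day 6 and 5.42 in vehicle, and Tmsb4x, an actin-binding peptide, was the most abundant such gene with 1004 FPKM on day 6, against 388 FPKM in vehicle.

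The lower side outside the lists was small and mostly noncoding. Of the 26 lower rows in no list, 16 were microRNA or small nucleolar RNA rows, and 55 such rows were among the 799 higher. These rows give reads from polyA-selected RNA at the location of a hairpin or a small RNA, often within another gene, and do not measure the mature RNA. Among the protein-coding ones, Nptx1 had 7.05 FPKM on day 6, against 15.1 FPKM in vehicle, and Lipg, an endothelial lipase, 1.77 FPKM on day 6, against 4.74 FPKM in vehicle.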
